A study of Mus musculus with 12 samples.

Results

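The genes described here are 39 genes of the type I interferon response, chosen by name and described across the scWAT (fat under the skin) of 12 female mice. The rule used no measured value, but the members were chosen with earlier results of these data known. Of the 39, 38 were found among the 55401 genes listed for each library, and all 38 passed the filter on low counts that kept 16540 genes. *Psmb9* was not analysed here, because none of the tables used pairs its symbol with a gene ID of the files. RNA was sequenced from 4 groups of 3 mice: *Jmjd1a* +/+ (wild-type) mice kept at 30°C or at 8°C, and *Jmjd1a* HY/HY mice kept at either temperature. The HY allele replaces a histidine of the histone demethylase JMJD1A by tyrosine and removes its catalytic activity. It was introduced into C57BL/6J eggs by genome editing, so every cell of the HY/HY mice carries it, and the females came from a single line. The mice were 16 weeks old, were caged singly, all lived at 30°C for 1 week before the test, and then stayed there (thermoneutrality) or moved to 8°C (cold) for 1 week.

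Type I interferons are secreted proteins that cells make when sensors detect foreign or misplaced nucleic acid. They bind the receptor formed by IFNAR1 and IFNAR2, whose kinases phosphorylate STAT proteins. These, STAT2 among them, join IRF9 to form ISGF3, which binds a DNA element called the interferon-stimulated response element (ISRE) and activates genes whose products block viral replication, degrade RNA, conjugate the ubiquitin-like protein ISG15 and present antigen. Many of these genes are also transcribed at a basal level in uninfected tissue. Adipocytes, endothelial cells and macrophages all express the receptor.

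The libraries held between 13592629 and 26352081 counts on the sense strand, and each library at 8°C held fewer than any at 30°C. The label of the tissue was checked against 8 markers of white adipocytes, all of which passed the filter, and whose summed level was between 22006 and 48349 CPM (counts relative to the library total, scaled by TMM factors) in every library. *Kdm3a*, the gene that encodes JMJD1A, lay between 35.7 and 61.7 CPM and did not pass the test in any comparison; the HY allele is a substitution, so its RNA level does not check the labels. Replicate 2 of the wild-type mice at 30°C held 961 CPM of 5 skeletal muscle markers, against at most 21.0 CPM in the other 11 libraries. Nothing in the labels ties the replicates to separate litters or days, and p-values measure the spread between these mice.

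The promoters of the members were searched for the ISRE, written as a pair of GAAA half-sites with 2 bases between them (GAAANNGAAA, or TTTCNNTTTC on the opposite strand, overlapping matches counted). In RefSeq's GRCm38.p6 table, which gives 250 bases before and 50 after each annotated start, 29 of the 39 members had a promoter, and 12 of these held at least 1 match (41.4%). Over all 32851 promoters of the table the share was 3.44%. That share is per promoter, while a member with more than 1 promoter counted once, as holding a match if any of them did. The 12 were *Ifih1*, *Ddx58*, *Stat2*, *Isg15*, *Ifit1*, *Ifit3*, *Oas1a*, *Oas3*, *Rsad2*, *Bst2*, *Gbp2* and *Gbp3*. Among the promoters without a match were those of *Irf7*, *Ifi35*, *Psmb8* and *Tap1*, the members that fell with cold in wild-type mice and have an entry. The promoters of 4 members are shown, 5′ to 3′ along the gene, with each match in capitals. In *Isg15* 3 matches overlap and begin 78, 72 and 66 bases before the start. In *Bst2* 2 matches overlap and begin 130 and 124 bases before it. *Psmb8* and *Irf7* are shown as called members in which these letters do not occur.
Isg15, chr4:156200769-156201068, minus strand: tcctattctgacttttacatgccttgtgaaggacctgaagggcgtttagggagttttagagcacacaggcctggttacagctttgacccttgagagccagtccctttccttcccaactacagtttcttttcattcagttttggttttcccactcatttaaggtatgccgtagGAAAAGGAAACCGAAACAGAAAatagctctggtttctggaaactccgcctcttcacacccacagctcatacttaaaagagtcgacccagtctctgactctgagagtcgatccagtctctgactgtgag
Bst2, chr8:71537423-71537722, minus strand: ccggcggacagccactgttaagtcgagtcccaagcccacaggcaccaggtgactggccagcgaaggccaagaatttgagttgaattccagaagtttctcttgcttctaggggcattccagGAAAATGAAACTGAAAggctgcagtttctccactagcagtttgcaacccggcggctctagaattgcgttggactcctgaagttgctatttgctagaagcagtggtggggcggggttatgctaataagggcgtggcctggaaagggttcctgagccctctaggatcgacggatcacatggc
Psmb8, chr17:34197945-34198244, plus strand: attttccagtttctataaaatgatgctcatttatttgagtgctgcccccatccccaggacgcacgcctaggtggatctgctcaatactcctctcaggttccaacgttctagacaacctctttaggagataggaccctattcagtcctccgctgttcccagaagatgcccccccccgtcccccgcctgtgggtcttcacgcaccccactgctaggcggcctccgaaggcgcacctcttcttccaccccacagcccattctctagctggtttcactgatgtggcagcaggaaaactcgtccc
Irf7, chr7:141266375-141266674, minus strand: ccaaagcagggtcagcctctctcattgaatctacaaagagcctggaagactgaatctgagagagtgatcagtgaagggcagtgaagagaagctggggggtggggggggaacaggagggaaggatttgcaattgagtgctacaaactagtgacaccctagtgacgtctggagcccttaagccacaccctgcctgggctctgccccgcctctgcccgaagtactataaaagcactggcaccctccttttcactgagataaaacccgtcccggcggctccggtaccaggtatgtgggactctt
A match is a run of letters and was not tested for binding.

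The members were transcribed at very different levels. Per kilobase of exon, in wild-type mice at 30°C, *Ifi27* stood first with 270.5 CPM per kb, *Bst2*, which encodes the membrane protein tetherin that holds budding virions to the cell, next with 120.1, and *Psmb8*, a catalytic subunit of the immunoproteasome, after it with 49.4. *Isg15* reached 17.8 CPM per kb, *Ifnar2* 10.5 and *Ifnar1* 5.54. The lowest were *Ifi44*, *Mx1* and *Oas3*, with 0.659, 0.518 and 0.193 CPM per kb. *Oas3* had only 3 to 37 counts in a library. *Mx1* and *Mx2*, GTPases that trap viral nucleocapsids, are annotated as transcribed pseudogenes in this reference. *Ifit3* and *Oas1a* have near-identical neighbours, *Ifit3b* and *Oas1g*, and read pairs that aligned to both copies were not counted, so their levels are uncertain.

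The secreted ligands themselves were barely detected. Of 12 interferon genes listed, 9 were matched, and 7 of them, *Ifnb1* and *Ifna4* among them, had 0 counts in all 12 libraries. *Ifng*, the type II interferon, had 10 counts in all, over 7 libraries, and *Ifne* had 4. None passed the filter. Counts of 0 at these depths limit each library to 3 counts of its total, and do not show that no cell of the tissue made the ligand. The libraries are of whole tissue, so fewer cells of a type and less RNA per cell cannot be told apart.

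**Figure D1:**
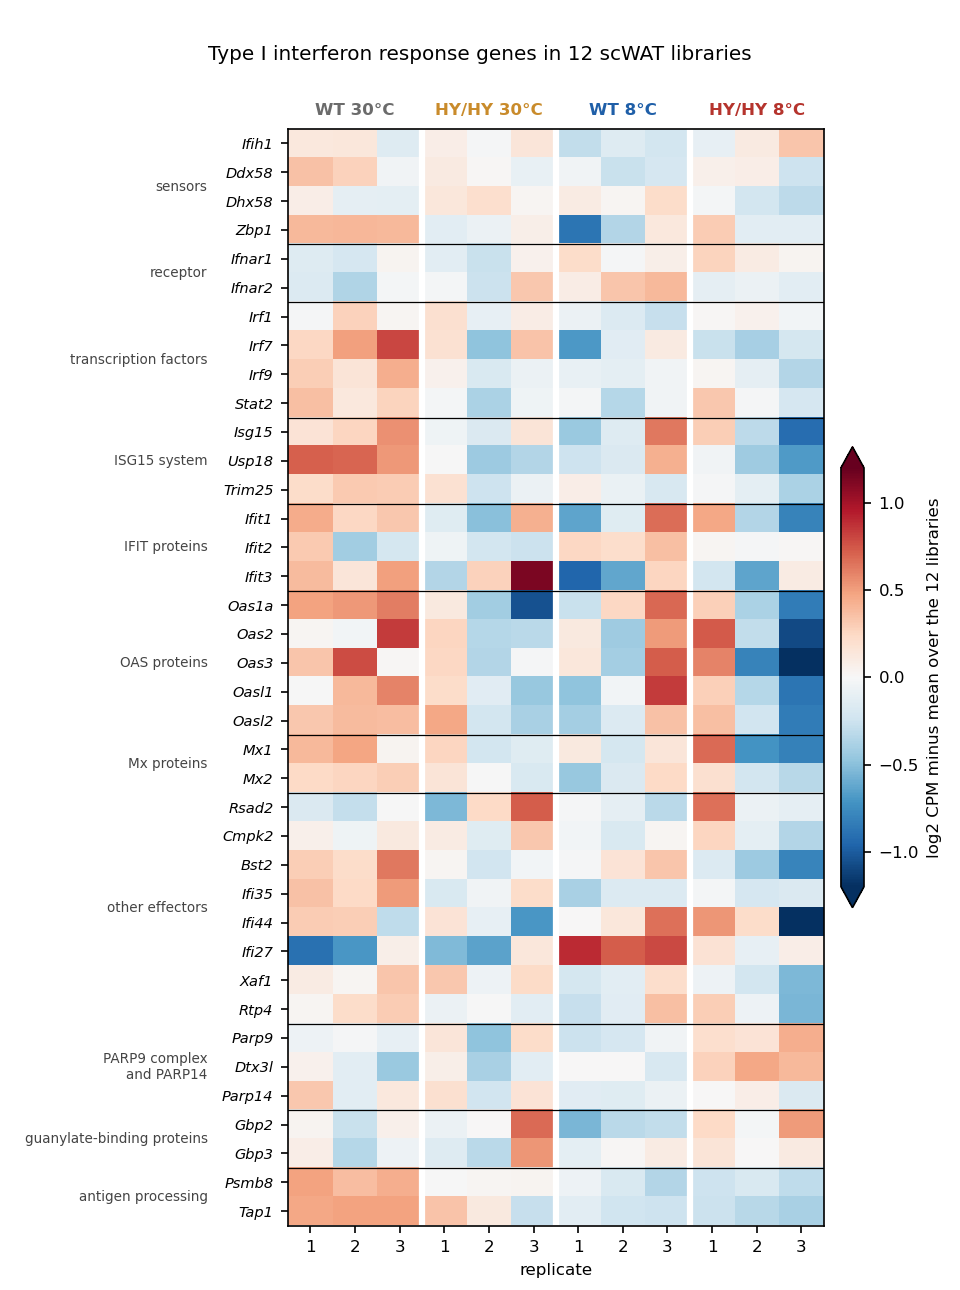
Level of the 38 measured members (rows, grouped by role) in the 12 libraries (columns, by group and replicate), as log2 CPM minus the gene's mean over all libraries; red is above and blue below the mean, and the colours end at -1.2 and 1.2. Most members are red in the 3 wild-type libraries at 30°C, *Ifi27* is red in all wild-type libraries at 8°C and blue in replicates 1 and 2 of those at 30°C, and replicate 3 of the HY/HY mice at 8°C is blue for the OAS genes.

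The cold response of wild-type mice was the comparison in which most members passed the test (the quasi-likelihood test of edgeR, at an adjusted p under 0.05 after Benjamini-Hochberg adjustment over all genes, with more than a 1.5-fold difference). Of the 38, 5 members were called lower at 8°C than at 30°C: *Psmb8*, *Tap1*, *Ifi35*, *Zbp1* and *Irf7*. Another, *Ifi27*, was called higher. Over all genes tested, 6.84% were called lower and 10.3% higher, so 1 of 38 higher is below the background, and 5 of 38 lower is a small number that lies somewhat above it. The median log2 fold change of the 38 was -0.25, and 29 of them (76.3%) were negative, against a median of -0.07 and 55.7% over all genes. With library totals in place of TMM, 14 members were called lower, but so were 4092 of the 16540 genes tested. The median of all genes was then -0.41. Without the library that held muscle transcripts 3 members were called lower, and leaving out each library in turn gave 2 to 5. In 11 members the 3 libraries at 8°C all lay below the 3 at 30°C, and in 2 they all lay above, where 22.7% and 20.7% of all genes did so. When groups of 3 do not overlap, the two-sided exact permutation test gives p = 0.1, the smallest it can give.

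The antigen processing genes fell together. *Psmb8* replaces a proteasome subunit and shifts cleavage towards peptides that fit MHC class I molecules, and *Tap1* is a chain of the transporter that carries these peptides into the endoplasmic reticulum. They are neighbours on chromosome 17, *Tap1* at chr17:34187556-34197225 and *Psmb8* at chr17:34198195-34201454 (GRCm38.p6). *Psmb8* measured 140.3, 129.3 and 135.8 CPM in wild-type mice at 30°C and 96.0, 88.1 and 78.7 at 8°C. The groups are far apart compared with their spread, and the fall was 0.63 on the log2 scale (fitted value -0.63 ± 0.10, SE; 95% interval -0.84 to -0.42; adjusted p = 0.000909). *Tap1* measured 69.2, 70.1 and 70.2 CPM at 30°C and 46.0, 42.5 and 42.3 at 8°C. Its log2 fold change was -0.68 ± 0.13 (adjusted p = 0.00379), and its call held in all 20 alternatives that gave a value. *Psmb8* fell under the fold limit, at -0.55 with an adjusted p of 0.00695, without replicate 3 of the wild-type mice at 8°C. In HY/HY mice *Psmb8* measured 99.7, 101.6 and 102.9 CPM at 30°C and 84.5, 88.1 and 80.9 at 8°C, and *Tap1* 63.6, 54.5 and 41.3, then 42.1, 39.8 and 38.2. The mean of HY/HY mice at 30°C, 101.4 CPM for *Psmb8* and 53.1 for *Tap1*, stood between the means of wild-type mice at 30°C (135.2 and 69.8) and at 8°C (87.6 and 43.6). *Tap2*, the partner chain of *Tap1* and no member, was the 1 gene called among 10 others of MHC class I presentation, at -0.87 ± 0.16 on the log2 scale (adjusted p = 0.00274).

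Of the transcription factors, *Irf7*, which amplifies the response by inducing interferon alpha genes, was called lower. It measured 37.9, 45.1 and 55.9 CPM at 30°C and 19.8, 29.2 and 34.5 at 8°C, so the groups were separated by a narrow gap, and its log2 fold change was -0.73 ± 0.23 (adjusted p = 0.0401). The call was lost without replicate 2 or 3 of the wild-type mice at 30°C, replicate 1 or 2 at 8°C, or any 1 of the HY/HY mice at 8°C, with adjusted p between 0.054 and 0.141. *Irf9*, the DNA-binding part of ISGF3, measured 41.0, 37.3 and 45.1 CPM at 30°C and 31.4, 30.9 and 32.5 at 8°C. It passed the adjusted p but not the fold limit (-0.38 ± 0.12, adjusted p = 0.0331). *Stat2* measured 51.3, 43.6 and 48.0 CPM at 30°C and 39.2, 31.4 and 38.8 at 8°C (-0.39 ± 0.15, adjusted p = 0.0821). All 4 members of this group, *Irf1* included, had lower levels in each wild-type library at 8°C than in any at 30°C. Over all genes 22.7% did so, and 1 of the 4 was called.

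The receptor subunits had positive log2 fold changes. *Ifnar2* measured 41.4, 36.2 and 45.7 CPM at 30°C and 49.6, 58.6 and 61.1 at 8°C in wild-type mice. All libraries at 8°C lay above those at 30°C, and the log2 fold change of 0.46 ± 0.15 passed the adjusted p (0.0386) but not the fold limit. With library totals in place of TMM it was 0.12 with an adjusted p of 0.394, so the rise depends on the scaling. *Ifnar1* measured 31.5, 30.4 and 35.9 CPM at 30°C and 40.8, 34.7 and 36.7 at 8°C, overlapping by 1 library (0.20 ± 0.12, adjusted p = 0.225). In all, 8 of 38 members had an adjusted p under 0.05 at any fold, as had 24.1% of all genes.

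*Ifi27*, which encodes a small hydrophobic protein found in mitochondria, was the member with the largest change. It measured 290.2, 332.4 and 567.8 CPM in wild-type mice at 30°C and 1006, 893.5 and 938.5 at 8°C. Even the highest library at 30°C lay well below the lowest at 8°C, and the level was 2.38 times as high on average in the fit (log2 1.25 ± 0.26, 95% interval 0.69 to 1.82, adjusted p = 0.00556). The call held in all 20 alternatives. The gene (chr12:103434189-103440245) lies within the span of a relative, *Ifi27l2a*, whose cold response was -0.61 ± 0.36 (adjusted p = 0.232), a value of the opposite sign. Among the other effectors, *Ifi35*, a partner of the interferon-induced protein NMI, measured 64.0, 59.1 and 71.6 CPM at 30°C and 38.3, 44.8 and 44.8 at 8°C. The groups did not overlap (-0.61 ± 0.12, adjusted p = 0.00488), and the fold dropped under the limit with DESeq2 (-0.57) and without replicate 3 of the wild-type mice at 30°C (-0.53) or replicate 1 at 8°C (-0.53).

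Of the 4 sensors, *Zbp1*, which recognises left-handed nucleic acid, was called lower. It measured 8.57, 8.62 and 8.56 CPM at 30°C, a very narrow range, and 3.49, 5.05 and 7.12 at 8°C (-0.71 ± 0.22, adjusted p = 0.0386). The call was lost without any 1 of the wild-type mice at 30°C, without replicate 1 or 2 at 8°C or without replicate 2 or 3 of the HY/HY mice at 8°C, with adjusted p between 0.0511 and 0.125, and with only the libraries compared (0.0736). *Ddx58*, which encodes the RNA sensor RIG-I, stood at -0.37 (adjusted p = 0.0564), and *Ifih1*, which encodes the RNA sensor MDA5, at -0.26 (0.145).

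The classical antiviral effectors did not pass the test. *Isg15*, the ubiquitin-like modifier, measured 11.97, 12.8 and 15.6 CPM at 30°C and 7.80, 9.58 and 16.6 at 8°C in wild-type mice, so that the libraries at 8°C held both the lowest and the highest value (-0.24 ± 0.30, 95% interval -0.91 to 0.42). The 3 IFIT genes, whose products bind foreign RNA, ranged from -0.69 to 0.35, and the 5 OAS genes from -0.40 to -0.12. The 2 Mx genes were at -0.38 and -0.31. None of these 11 genes was called, and in each of them the groups overlapped. *Usp18*, the protease that removes ISG15 and damps the receptor, came close to the limit at -0.62 ± 0.21 (adjusted p = 0.0533), and *Trim25*, a ligase that activates RIG-I, was at -0.34 (adjusted p = 0.0766).

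The values of 12 further members in wild-type mice did not pass the test. *Rsad2*, which encodes the antiviral enzyme viperin, stood at 0.00, its neighbour *Cmpk2*, a nucleotide kinase, at -0.10, *Ifi44* at 0.18, *Xaf1* at -0.19 and *Rtp4* at -0.17. *Bst2* stood at -0.23 and *Dhx58*, which encodes the sensor LGP2, at 0.16. *Parp9* and *Parp14*, ADP-ribosylating enzymes of the response, were at -0.11 and -0.24 and *Dtx3l* at 0.10, while the GTPases *Gbp2* and *Gbp3* were at -0.33 and 0.10. The lowest adjusted p among these 12 was 0.234.

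**Figure D2:**
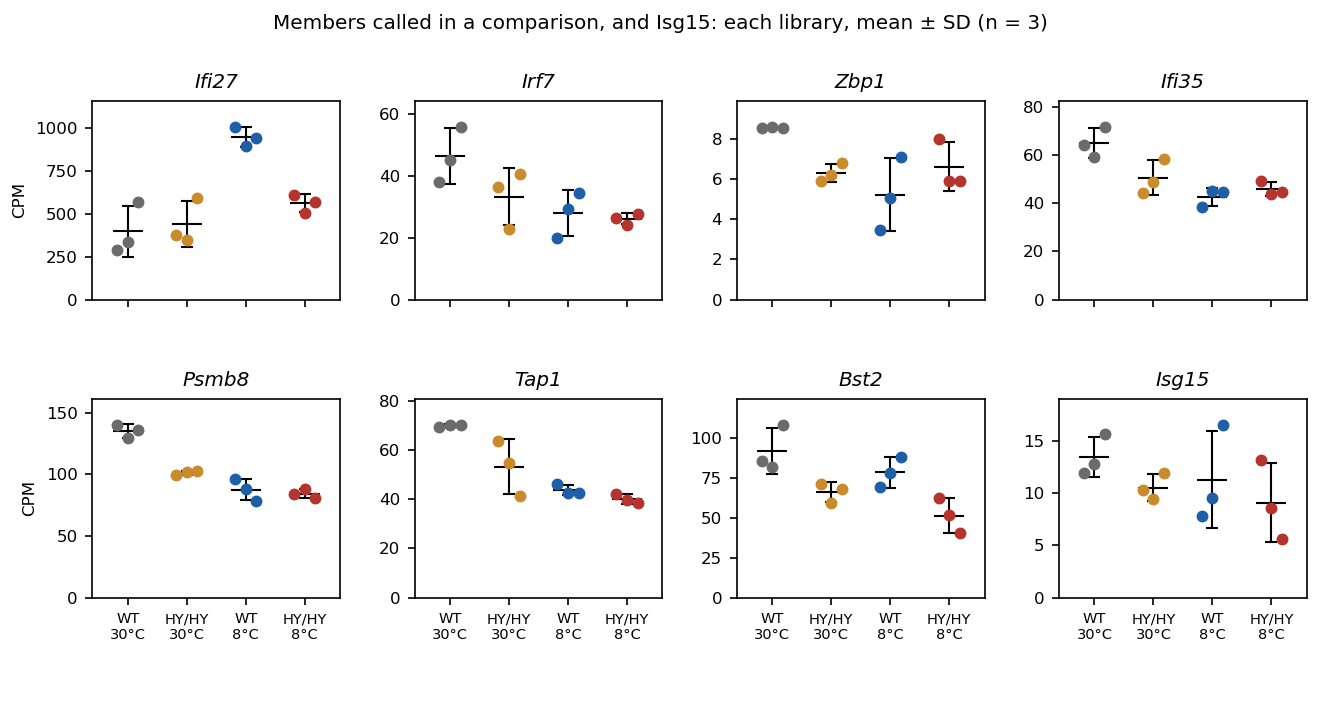
CPM of the 7 members called in a comparison and of *Isg15* in each library (points, from replicate 1 at the left to replicate 3 at the right within a group), with the mean and SD of each group (n = 3); every vertical axis starts at 0. *Psmb8* and *Tap1* are highest in the wild-type mice at 30°C, *Ifi27* in those at 8°C, and *Isg15* spreads from 5.60 to 16.6 CPM across the groups at 8°C.

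In *Jmjd1a* HY/HY mice no member passed the test for a cold response. edgeR called 0 of 38 members, with 6 at an unadjusted p under 0.05, and DESeq2 also called 0. The background was low as well, since 0.248% of all genes were called in this comparison. The median of the members was -0.08 and that of all genes -0.01, with 24 of 38 members negative. In 3 members (*Dhx58*, *Xaf1* and *Psmb8*) the libraries at 8°C all lay below those at 30°C, and in 2 (*Ifit2* and *Dtx3l*) all above, against 9.00% and 9.33% of all genes. *Dtx3l*, an E3 ubiquitin ligase that works in a complex with *Parp9*, had the largest positive value, 0.52 ± 0.15 (adjusted p = 0.161). *Irf7* measured 36.3, 22.9 and 40.6 CPM at 30°C and 26.5, 24.3 and 27.7 at 8°C, and the groups overlapped. *Irf9* measured 34.5, 29.4 and 31.9, then 34.1, 31.0 and 26.1 CPM, and *Stat2* 39.2, 30.6 and 38.4, then 49.99, 39.6 and 34.6 CPM. Neither pair of groups was separated. *Ifnar1* measured 32.04, 29.1 and 36.3, then 42.1, 37.6 and 35.9 CPM, and *Ifnar2* 45.6, 38.8 and 58.2, then 43.2, 44.3 and 42.7 CPM. *Ifi27* measured 374.8, 347.0 and 593.3 CPM at 30°C and 609.6, 504.0 and 569.9 at 8°C, which overlap (0.36 ± 0.26, adjusted p = 0.553).

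**Figure D3:**
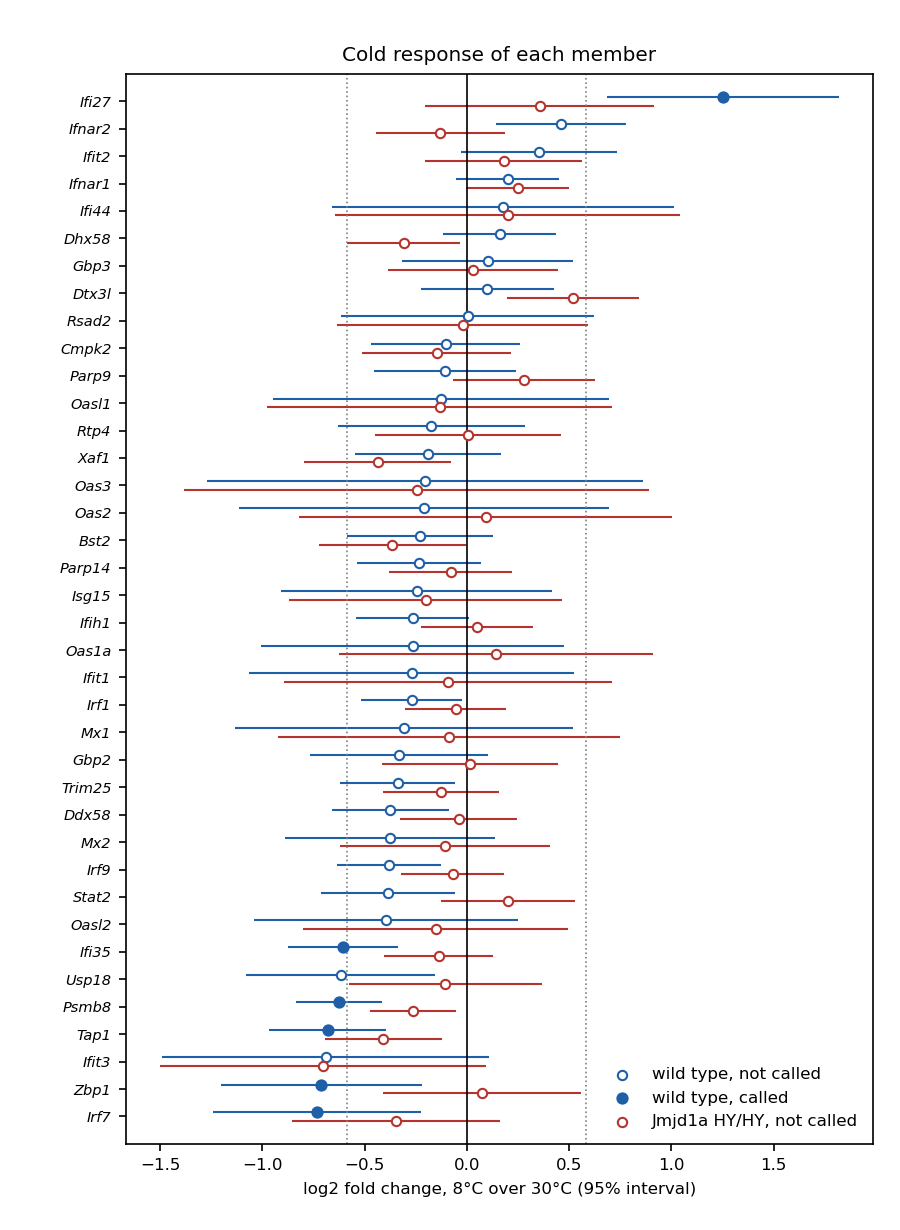
Log2 fold change of each member, 8°C over 30°C, with its 95% interval, in wild-type mice (blue) and in *Jmjd1a* HY/HY mice (red); filled points passed the test, and the dotted lines mark a fold change of 1.5 in either direction. The 6 filled points are all of wild-type mice, and the intervals of the genotypes overlap for all 38 members.

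The difference between the cold responses was tested directly as the interaction, the response in HY/HY mice with that in wild-type mice subtracted. No member was called by edgeR at an adjusted p under 0.05 (7 at an unadjusted p under 0.05) or by DESeq2, while 2.24% of all genes were called by edgeR. The members called in wild-type mice are therefore not shown to respond differently in HY/HY mice. The interaction was -0.90 for *Ifi27* (95% interval -1.69 to -0.11, adjusted p = 0.266), 0.79 for *Zbp1* (0.10 to 1.47, 0.264), 0.36 for *Psmb8* (0.07 to 0.66, 0.227), 0.47 for *Ifi35* (0.09 to 0.85, 0.223), 0.27 for *Tap1* (-0.13 to 0.67, 0.526) and 0.39 for *Irf7* (-0.33 to 1.10, 0.624). The median over the members was 0.22 and over all genes 0.04, and 26 of 38 were positive. Without replicate 1 of the HY/HY mice at 8°C the members' median was -0.03, and without replicate 3 of the wild-type mice at 30°C *Ifi27* passed the test (-1.25, adjusted p = 0.0472). With library totals in place of TMM, *Ifi35* passed it (0.69, adjusted p = 0.0352).

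At 30°C no member passed the test between the genotypes, although many measured lower in HY/HY mice. The summed markers of mammary epithelium also lay lower in HY/HY mice (535.9 to 1488 CPM) than in wild-type mice (2067 to 3725 CPM) at 30°C, and their part in the members' values was not tested. edgeR called 0 of 38, with 9 at an unadjusted p under 0.05, where 0.998% of all genes were called. DESeq2 called 1, *Usp18*, lower, and it called 311 of the 16540 genes tested lower. In 13 members the HY/HY libraries all lay below the wild-type ones, and in 0 members all above, while this was so of 10.6% and 7.66% of all genes. The 13 were *Zbp1*, *Stat2*, *Irf9*, *Isg15*, *Usp18*, *Trim25*, *Oas1a*, *Mx2*, *Bst2*, *Ifi35*, *Rtp4*, *Psmb8* and *Tap1*. Interferon-stimulated genes outside the list did not show this. Of 43 such genes, 1 lay wholly lower and 1 wholly higher in HY/HY mice at 30°C, with a median of -0.05. The median log2 fold change of the members was -0.28, that of all genes -0.01, and 26 of 38 were negative. *Usp18* measured 15.8, 15.6 and 13.7 CPM in wild-type mice and 9.49, 7.02 and 7.48 in HY/HY mice (-0.91 ± 0.21, adjusted p = 0.0616). *Psmb8* differed by -0.41 ± 0.10 (adjusted p = 0.0605). *Isg15* measured 10.3, 9.43 and 11.9 CPM in HY/HY mice, each below the 11.97 CPM of the lowest wild-type library, yet within a 95% interval from -1.01 to 0.30. These values share the wild-type libraries at 30°C with the cold response of wild-type mice, so the lower levels in both comparisons are not independent of each other. Without replicate 1 of the HY/HY mice, *Usp18* passed the test (-1.05, adjusted p = 0.0453).

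At 8°C, 1 member, *Bst2*, was called lower in HY/HY than in wild-type mice and 0 were called higher, against 4.34% and 1.51% of all genes. *Bst2* (chr8:71534255-71537472) measured 68.9, 77.9 and 88.02 CPM in wild-type mice at 8°C and 62.2, 51.4 and 40.3 in HY/HY mice. The groups were separated by a narrow gap (-0.61 ± 0.17, 95% interval -0.97 to -0.25, adjusted p = 0.0464). The call was lost without replicate 1 of either group at 30°C, without any 1 of the wild-type mice at 8°C or without replicate 2 or 3 of the HY/HY mice at 8°C, with adjusted p between 0.0517 and 0.176, and with library totals in place of TMM (0.133). At 30°C *Bst2* measured 85.7, 81.4 and 108.1 CPM in wild-type and 70.9, 59.3 and 68.0 in HY/HY mice, again without overlap (-0.47 ± 0.16, adjusted p = 0.16). *Ifi27* was lower in each HY/HY library than in any wild-type one at 8°C (-0.75 ± 0.26, adjusted p = 0.102). *Gbp2*, a GTPase that coats intracellular pathogens, was higher in each HY/HY library (78.0, 65.0 and 93.8 CPM) than in any wild-type one (45.04, 52.7 and 53.8 CPM), a difference of 0.64 ± 0.20 (adjusted p = 0.0764). DESeq2 called *Bst2* and *Ifi27* lower and *Gbp2* higher. Of the 16540 genes tested, DESeq2 called 947 lower and 406 higher, more than edgeR. Over the list, 6 members lay wholly lower in HY/HY mice and 5 wholly higher, the latter being *Ifih1*, *Irf1*, *Parp9*, *Dtx3l* and *Gbp2*; of all genes 19.0% and 16.4% did so. The median was -0.08, against 0.01 over all genes. With library totals in place of TMM it was 0.06, against 0.15 over all genes, and it was 0.09 without replicate 3 of the wild-type mice and 0.08 without replicate 3 of the HY/HY mice.

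Markers of macrophages, which can respond to interferon, measured higher in HY/HY than in wild-type mice at both temperatures. All 8 macrophage markers were measured, and none was at 0 in a library. At 8°C, 3 were called higher in HY/HY mice (*Mrc1*, *Csf1r* and *Cd163*), as were 1.51% of all genes. The summed level of the 8 was between 258.3 and 356.3 CPM there against 163.8 to 170.4 CPM in wild-type mice. At 30°C the sums were 204.6 to 209.7 CPM in wild-type and 230.0 to 401.9 CPM in HY/HY mice, and 0 of the 8 markers were called. Of 5 endothelial markers, 4 were called higher with cold in wild-type mice, as were 10.3% of all genes. The sum of the 5 went from between 411.1 and 635.4 CPM to between 771.9 and 1063 CPM. In HY/HY mice the endothelial sum was 609.5 to 723.9 CPM at 30°C and 612.2 to 802.4 CPM at 8°C. Markers of mammary epithelium, which lies within this depot in females, measured lower in the same comparisons as many members. With cold in wild-type mice, 6 of 7 measured markers were negative, with a median log2 fold change of -1.01, and 2, *Epcam* and *Elf5*, were called lower. Over all genes 55.7% were negative and 6.84% called lower in this comparison. Between the genotypes at 30°C all 7 of these markers were negative, against 51% of all genes, with a median of -1.24. None of the 7 was called by edgeR (4 at an unadjusted p under 0.05). Their summed level was 2067 to 3725 CPM in wild-type mice at 30°C, above each library of the wild-type mice at 8°C (1388 to 1527 CPM) and of the HY/HY mice at 30°C (535.9 to 1488 CPM). The sum was 901.4 to 1319 CPM in HY/HY mice at 8°C. *Wap*, the eighth marker and a milk protein, had 0 counts in 11 libraries. The 7 T-cell markers were all negative with cold in wild-type mice, with a median of -1.23, and 0 were called by edgeR (4 at an unadjusted p under 0.05). Their sums, 8.48 to 20.8 CPM at 30°C and 4.17 to 8.99 CPM at 8°C, overlapped. Of 5 markers of plasmacytoid dendritic cells, the main producers of interferon alpha in blood, 1, *Siglech*, passed the filter, with 3 to 27 counts in a library. Their sum was at most 2.92 CPM in 11 libraries and 7.11 CPM in the library with muscle transcripts, where *Cox6a2* reached 166 counts. The part of these cells in the members' values was not tested.

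For many of the classical effectors the mice differed widely within some groups, and many of these genes were highest, or lowest, in the same mouse. Within groups, the SD of log2 CPM was 0.61 for *Oas3*, 0.59 for *Oas2*, 0.57 for *Ifi44*, 0.53 for *Ifit3* and 0.52 for *Ifit1*. It was 0.24 for *Mx2* and 0.20 for *Ifit2*, and 0.12 for *Irf1*, 0.11 for *Dhx58* and 0.08 for *Psmb8*. *Oas3*, *Oas2*, *Ifi44* and *Ifit1* have low mean levels, 0.80, 5.98, 3.90 and 9.16 CPM in that order, while that of *Ifit3* was 36.1 CPM. The mean was 103 CPM for *Irf1*, 10.7 for *Dhx58* and 102 for *Psmb8*. The part of low counts in these SDs was not tested. The median over the members was 0.23 and that over all genes 0.25, so the list as a whole was not more variable. At 8°C, replicate 1 of the HY/HY mice was the highest of its group in 27 of 38 members, and replicate 3 the lowest in 28 of 38. Over all genes these libraries were the highest in 32.2% and the lowest in 37.8%. Among the wild-type mice at 8°C, replicate 3 was the highest in 26 members, against 33.8% of all genes, and replicate 1 the lowest in 20, against 36.9%. Among the HY/HY mice at 30°C, replicate 2 was the lowest in 22 members, against 30.9% of all genes, and replicate 1 the highest in 20, against 31.8%. In the wild-type mice at 30°C, replicate 3 was the highest in 19 and replicate 2 the lowest in 17, against 39.8% and 30.9%. *Isg15* measured 13.1, 8.56 and 5.60 CPM in the HY/HY mice at 8°C, a ratio of 2.35 between the highest and the lowest, *Oas2* 9.39, 4.56 and 2.60 CPM, *Ifi44* 5.37, 4.31 and 1.54 CPM and *Ifit1* 12.04, 6.81 and 4.95 CPM. In the wild-type mice at 8°C *Ifit1* measured 5.57, 7.85 and 13.9 CPM and *Oasl1* 1.63, 2.26 and 4.23 CPM. For these genes the same mouse of a group was the highest and the same mouse the lowest. Replicate 1 of the HY/HY mice at 8°C also had the highest macrophage marker sum of its group, 356.3 CPM against 258.3 and 286.7 in the other mice, and in wild-type mice at 8°C the sums were 170.4, 164.0 and 163.8 CPM, without such a difference in replicate 3. At 30°C the sums of replicates 1 to 3 were 401.9, 230.0 and 236.3 CPM in HY/HY mice. They were 209.3, 204.6 and 209.7 CPM in wild-type mice. Replicate 3 of the HY/HY mice at 8°C had the lowest total count of all libraries, 13592629.

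**Figure D4:**
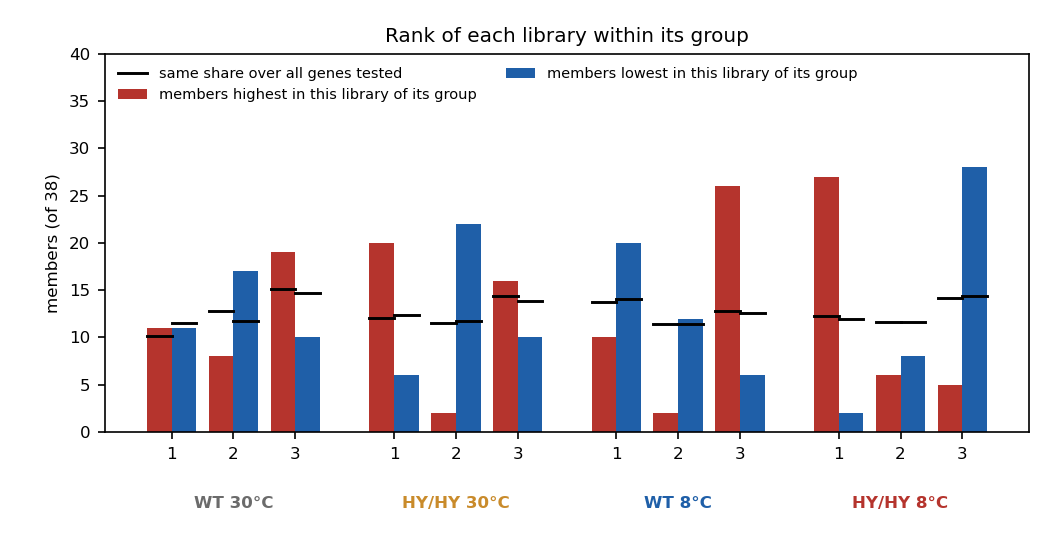
Number of the 38 members (vertical axis, from 0) for which each library was the highest (red) or the lowest (blue) of its group of 3; the black lines give the number that the share over all genes tested would make. Replicates 1 and 3 of the HY/HY mice at 8°C stand out, with 27 members highest and 28 lowest.

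Genes of the same pathway outside the list were taken from lists set by name. With cold in wild-type mice, the shares of all genes called were 10.3% higher and 6.84% lower. Among 12 genes of receptor signalling, 0 were called higher and 2 lower with cold in wild-type mice: *Socs3*, a feedback inhibitor of cytokine receptors (-1.03 ± 0.24, adjusted p = 0.00935), and *Ptpn6*, a phosphatase of immune cells (-0.81 ± 0.22, 0.0204). Of 14 measured genes that drive or restrain interferon production, *Mavs*, the mitochondrial adaptor of RIG-I and MDA5, rose (0.60 ± 0.11, 0.00329) and *Samhd1*, which limits nucleotides for viral DNA synthesis, fell (-0.63 ± 0.13, 0.00459). Among 43 further interferon-stimulated genes 4 were called lower, which is close to the background, and 0 higher, which is below it. Their median was -0.25, and 32 of them (74.4%) were negative, against 55.7% of all genes. The 3 with the smallest p were *Oas1c* (-0.97 ± 0.22, 0.00914), *Ifitm1* (-1.02 ± 0.28, 0.0205) and *Ifi205* (-0.94 ± 0.26, 0.0247). The calls of *Socs3* and *Oas1c* held in all 20 alternatives. Those of the others were lost when single wild-type libraries were left out. For *Ptpn6* these were replicate 2 at 30°C and replicates 2 and 3 at 8°C (adjusted p between 0.0591 and 0.0821), for *Ifitm1* replicate 1 at 30°C and replicates 2 and 3 at 8°C (0.0587 to 0.0789) and for *Ifi205* replicate 2 at 30°C and replicates 1 and 2 at 8°C (0.0792 to 0.0963). *Samhd1* dropped under the fold limit without replicate 2 at 30°C (-0.58), and *Mavs* without replicate 1 (0.57) or 2 (0.58) at 30°C, without replicate 1 at 8°C (0.58) and with library totals (0.27). In HY/HY mice none of the genes of these lists was called with cold. Between the genotypes at 8°C, 30 of the 43 further interferon-stimulated genes were positive. Their median was 0.13, where that of the members was -0.08. In 11 the HY/HY libraries all lay above the wild-type ones and in 2 all below, against 16.4% and 19.0% of all genes. At 8°C, 2 genes of these lists were called higher in HY/HY than in wild-type mice, where 1.51% of all genes were: *Tlr7*, an endosomal sensor of single-stranded RNA (1.06 ± 0.27, 0.0367), and *Ifi205* (1.12 ± 0.27, 0.0265). The call of *Tlr7* was lost without replicate 1 of the wild-type mice at 30°C or any 1 of the 6 libraries at 8°C (adjusted p between 0.0528 and 0.146) and with no filter on low counts (0.068), and that of *Ifi205* without replicate 1 or 2 of the wild-type or 1 or 3 of the HY/HY mice at 8°C (0.0569 to 0.117).

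The members were also described by whether their promoter held an ISRE match. In the cold response of wild-type mice, the 12 with a match had a median log2 fold change of -0.27, with 10 negative and 0 called, and the 16 measured members whose promoter held none had a median of -0.23, with 11 negative and 4 called lower. Over all genes 55.7% were negative and 6.84% called lower, and the difference between the promoter classes was not tested. At 30°C the medians of HY/HY against wild-type mice were -0.27 and -0.31, and at 8°C 0.10 and -0.10.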

How the data were processed

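RNA from scWAT of 12 mice was sequenced in pairs of reads. The authors trimmed the reads with fastp, checked them with FastQC and aligned them to mm10 with STAR. The deposited values are raw counts of read pairs per gene, unnormalised, with both strands joined and each strand apart. Pairs aligned to several places or to none, outside genes or on several genes made up 57.0% to 64.4% of each library and stayed out of library sizes and tests. The counts of the sense strand were used. Of the 55401 gene IDs, 29927 were paired with a symbol, and 2662 IDs that share a symbol were left out.

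The counts were analysed with edgeR 4.0.16 in R 4.3.3, with filterByExpr, TMM factors (0.859 to 1.18) and a quasi-likelihood fit of 1 mean per group to all 12 libraries, with 8 residual degrees of freedom. P-values are two-sided and adjusted by Benjamini-Hochberg over all 16540 genes. Calls needed an adjusted p below 0.05 with more than a 1.5-fold difference in either direction, and for the interaction the adjusted p alone. The fit was tested on simulated data first. Standard errors come from the F statistic. Values are given for each member called and for *Ifnar1*, *Ifnar2*, *Stat2*, *Irf7*, *Irf9* and *Isg15*, and for at most 3 called genes of each further list; other named members illustrate a count and were chosen with their values known. The members and lists were chosen with earlier results of these data known. Exon lengths come from an older annotation, GENCODE M1. Leaving out each library in turn and 9 other alternatives were tried.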

Additional observations from a re-analysis of the deposited data

How the results depend on the processing

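*Ifi27* and *Tap1* kept their calls in wild-type mice under every alternative run, and no gene named here as called changed direction under any. With library totals in place of TMM, 14 members were called lower with cold in wild-type mice, as were 4092 of the 16540 genes tested. The members' median was -0.60, but the median of all genes moved from -0.07 to -0.41, which leaves -0.19 relative to it. The share of higher among all called genes went from 60.1% to 20.5%. The same scaling gave 1 member higher and 0 lower between genotypes at 8°C (25.7% and 52.8% of all calls higher under TMM and library totals), 1 higher in the interaction, and an interaction median of 0.43, or 0.18 relative to all genes. Without the fold limit, 2 members were higher with cold in wild-type mice. Between genotypes at 8°C, DESeq2 and the fit of only the libraries compared each gave 1 higher and 2 lower, and no filter on low counts gave 1 higher. Over all genes, DESeq2 called 406 higher and 947 lower there. The fit of only the libraries compared called 634 and 972, and no filter called 355 and 781. At 30°C, DESeq2 and no filter on low counts each gave 1 lower, and over all genes they called 311 and 283 lower. The cause of these changes was not tested.

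Leaving out 1 library at a time gave 1 to 2 higher and 2 to 5 lower with cold in wild-type mice, 0 to 1 higher and 0 to 2 lower between genotypes at 8°C, 0 to 1 lower at 30°C and 0 to 1 lower in the interaction. The count of 5 lower became 3 without replicate 2 or 2 without replicate 3 of the wild-type mice at 30°C, 2 without replicate 1 or 3 without replicate 2 of those at 8°C, and 3 without replicate 2 or 3 of the HY/HY mice at 8°C. The medians ranged from -0.38 to -0.17 for cold in wild-type mice, from -0.22 to 0.04 in HY/HY mice, from -0.171 to 0.0892 between genotypes at 8°C, from -0.30 to -0.21 at 30°C and from -0.0271 to 0.32 in the interaction.

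The labels do not say whether same-numbered libraries of different groups belong together. Of 18 such pairs, 11 had a correlation of deviations above 0.1 (range -0.07 to 0.35). Whether they share a batch was not tested. With the replicate block, 6 members were lower and 1 higher with cold in wild-type mice, 2 lower and 1 higher between genotypes at 8°C and 1 lower at 30°C. Over all genes, the block moved the calls between genotypes at 30°C from 93 higher and 72 lower to 215 and 298. With cold in HY/HY mice they went from 30 higher and 11 lower to 128 and 32. Members with few counts, such as *Oas3*, are limited by depth, and at least 10 counts in every library kept 37 of 38.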
